A study of Homo sapiens with 6 samples.

Results

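The constitutive proteasome subunits were examined in bulk RNA-seq of UMUC3 bladder tumours with GANAB knockdown and of control UMUC3 tumours. UMUC3 is an established human bladder carcinoma cell line, and the GANAB product is the catalytic subunit of glucosidase II, an enzyme that trims glucose from new N-glycans in the endoplasmic reticulum. There were 3 libraries of GANAB knockdown cells and 3 of control cells, and in both groups the cells had grown for 14 days after transplantation into the bladders of C57 nude mice, hosts that lack mature T cells. The labels do not state how the knockdown was made, whether it was 1 clone, or how many mice gave the 3 libraries of each group. The p-values therefore measure the spread among the libraries, some or all of which may be technical. Subunits were taken by gene symbol, as every gene of the deposited count table named PSMA, PSMC or PSMD with a number, or PSMB1 to PSMB7. This gave 34 of 21503 genes, all of which passed the filter on low counts. PSMA8, a testis form of an alpha subunit, has such a name but is in the TPM table alone, where it was listed at 0 in all 6 libraries.

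The proteasome is the protease that degrades ubiquitin-tagged proteins, including glycoproteins withdrawn from the endoplasmic reticulum. Its 20S core is a barrel of outer alpha rings, which form the gate, and inner beta rings, of which PSMB5, PSMB6 and PSMB7 carry the active sites. The 19S particle caps the barrel: a base with a ring of ATPases unfolds the substrate, and a lid removes the ubiquitin. In human cells the transcription factor NFE2L1, which is itself an N-glycosylated protein of the endoplasmic reticulum until NGLY1 removes the glycans and DDI2 cleaves it, raises transcription of subunit genes when proteasome activity is short.

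GANAB was checked first and stood at 232, 238 and 231 CPM in knockdown libraries 1, 2 and 3, against 685, 825 and 661 CPM in control libraries 1, 2 and 3 (log2 fold change -1.63, edgeR adjusted p = 0.00239). CPM here are counts scaled to library size after TMM normalization. Knockdown libraries held 36619291 to 40039584 counts and control libraries 11737837 to 36381218. Control library 1 stood apart, with 29.2% of its counts in the 2 mitochondrial ribosomal RNA genes, against 2.11% to 2.43% in the knockdown libraries and 0.928% and 1.10% in control libraries 3 and 2. No member was thinly covered: the fewest counts were 365, for PSMD10 in control library 3. KRT8, KRT18 and VIM were expressed in all libraries, VIM at 5501 to 5656 CPM in knockdown and 2193 to 3376 CPM in control libraries, while CDH1 stayed under 1 CPM. The other genes of this list of 7 were low. KRT7 had 4.90 to 22.4 CPM and KRT19 0.894 to 3.995 CPM over the 6 libraries, and EPCAM did not pass the filter on low counts. Human genes listed as markers of host cell types were also summed. The hosts are mice, and the submitters' notes do not state whether mouse reads were removed. Whether the reads of these genes came from host or tumour cells was not tested. The 6 smooth muscle markers summed to 569 to 605 CPM in knockdown and 117 to 308 CPM in control libraries. All 6 were higher in each knockdown library than in any control library, as were 21.9% of all genes tested. Of the 6, 4 rose (edgeR adjusted p under 0.05), against 4.59% of all genes tested. The 7 of 9 macrophage markers in the count table summed to 75.2 to 76.1 CPM in knockdown and 88.1 to 294 CPM in control libraries, mostly from CD68. The list did not move together: CD68 was lower in all knockdown libraries and CSF1R, at under 1 CPM, was higher in all. PTPRC, ADGRE1 and LYZ overlapped between the groups. For 5 of 6 endothelial markers the sums were 5.11 to 6.55 CPM in knockdown and 1.89 to 3.35 CPM in control libraries. Of these, only CDH5 did not overlap between the groups. The 6 of 8 fibroblast markers gave 158 to 159 CPM in knockdown and 19.1 to 209 CPM in control libraries, with LUM at 0 throughout. Of the 5 fibroblast markers tested, only PDGFRB did not overlap between the groups, and it rose (log2 fold change 1.23, edgeR adjusted p = 0.0195). Of 6 lymphocyte markers 1 was in the count table, at under 1 CPM, and CD3D and MS4A1 were listed at 0. The part of host cells in the results below was not tested, and in bulk tissue fewer cells of a type cannot be told from less RNA per cell.

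Most proteasome subunits had less RNA in knockdown than in control tumours, and for 7 of them the difference passed the test. Of the 34 genes, 7 fell (edgeR adjusted p under 0.05) and 0 rose, where 3.72% of all 19430 genes tested fell and 4.59% rose. The 7 were PSMA1 and PSMA2 of the alpha ring, PSMB1 of the beta ring, the ATPase gene PSMC3, and PSMD2, PSMD7 and PSMD14 of the 19S particle. At an unadjusted p under 0.05, 21 of 34 were lower, against 12.2% of all genes. The fold change was negative for 33 of 34 subunits, and for 47.9% of all genes. All 3 knockdown values lay below all 3 control values for 24 of 34 subunits, as they did for 15.7% of all genes, and above them for 0 of 34, against 21.9% of all genes. The median log2 fold change was -0.49 over the subunits and 0.03 over all genes tested, and the subunits ranged from -0.94 for PSMA7 to 0.06 for PSMD5. The call of individual genes depended on the libraries: without knockdown library 1, 2 or 3 none of the 34 passed (12, 13 and 13 were lower at an unadjusted p under 0.05, and 0.0452%, 0.165% and 0.0901% of all genes were called lower), while 9, 17 and 8 fell without control library 1, 2 or 3 (3.26%, 13.8% and 4.28% of all genes). By the DESeq2 Wald test 14 fell, against 8.21% of all genes, by limma-voom 11 (4.95%), by limma-voom with quality weights 15 (10.4%), and in edgeR with genes of at least 5 CPM in 3 libraries 11 (7.13%). With DESeq2 size factors, upper-quartile scaling or no filter, 6 fell each time, against 3.93%, 3.34% and 3.03% of all genes. On the deposited TPM scale none passed with log2(TPM + 1), log2(TPM + 0.1) or no filter, settings in which 0.494%, 0.359% and 0.00901% of all genes were called lower by limma. On the log2(TPM + 1) scale 28 of 34 fold changes were negative, with a median of -0.24 over the subunits and 0.23 over all genes. After each library was rescaled to its protein-coding genes, a setting chosen after seeing the data, 6 subunits fell, 5 of them among the 7, against 3.22% of all genes.

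**Figure D1:**
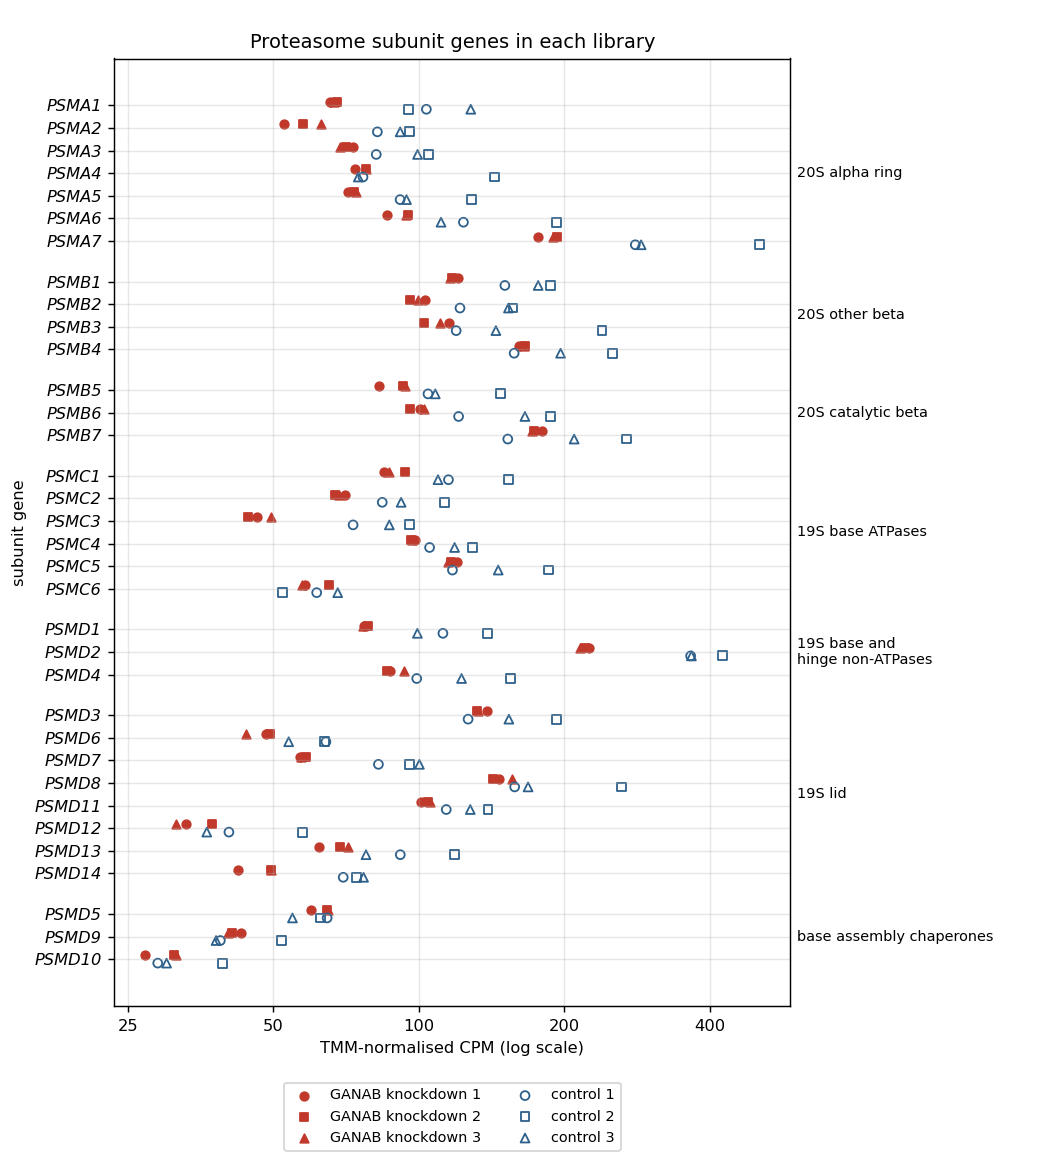
TMM-normalised CPM (log axis) of each of the 34 subunit genes, grouped by role, with filled symbols for the 3 GANAB knockdown libraries and open symbols for the 3 control libraries. Knockdown symbols sit close together and to the left of all control symbols for 24 genes, and the open square of control library 2 is often the farthest right.

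The levels within a group differed in spread. Over the 34 genes the highest knockdown library exceeded the lowest by 1.018-fold for PSMC4 to 1.19-fold for PSMA2, with a median of 1.07-fold. Among control libraries the same ratio ran from 1.10-fold for PSMD14 to 2.00-fold for PSMB3, with a median of 1.38-fold. Control library 2 was the highest control for 28 of 34 subunits, and control library 1 the lowest for 23. Summed over all subunits, knockdown libraries 1, 2 and 3 held 3086, 3122 and 3133 CPM, and control libraries 1, 2 and 3 held 3777, 5309 and 4167 CPM. So the size of a change rested in part on control library 2: without it the median over the subunits was -0.33, with 30 of 34 negative.

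In the alpha ring, which gates the entry to the core, 2 of 7 genes fell and the other 5 were lower without passing, with a median log2 fold change of -0.64. PSMA1 (chromosome 11, 14504874 to 14643635, minus strand, GRCh38) stood at 65.6, 67.6 and 66.7 CPM in knockdown libraries, against 104, 95.2 and 128 CPM in control libraries (log2 fold change -0.71, SE 0.15, edgeR adjusted p = 0.0299). PSMA2 (chromosome 7, 42916857 to 42932223, minus strand) had 52.7, 57.6 and 62.6 CPM in knockdown and 82.0, 95.6 and 91.4 CPM in control libraries (log2 fold change -0.64, SE 0.13, edgeR adjusted p = 0.0309). Neither gene's groups overlapped. PSMA7 was the most abundant alpha subunit and had the largest difference of all 34 subunits, 177, 193 and 189 CPM in knockdown against 280.4, 507 and 288 CPM in control libraries, and it did not pass (log2 fold change -0.94, SE 0.24, edgeR adjusted p = 0.0553). It fell in the fits without control library 2 (log2 fold change -0.60) or without control library 3 (log2 fold change -1.13). PSMA3, PSMA5 and PSMA6 had log2 fold changes of -0.43, -0.52 and -0.64 and also no overlap between the groups. PSMA4 was the exception in the ring: it had 73.9, 77.9 and 77.6 CPM in knockdown libraries and 76.6, 143 and 74.9 CPM in control libraries, with control library 2 alone standing high (log2 fold change -0.36, and 0.02 without that library).

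The beta rings held 1 gene that fell. PSMB1 (chromosome 6, 170535117 to 170553341, minus strand), a subunit without an active site, had 120.4, 117 and 116 CPM in knockdown and 151, 187 and 177 CPM in control libraries (log2 fold change -0.54, SE 0.13, edgeR adjusted p = 0.0499), and it was no longer called without control library 3 (log2 fold change -0.57, edgeR adjusted p = 0.0607). Its call was also lost with DESeq2 size factors, upper-quartile scaling or no filter (edgeR adjusted p = 0.052, 0.061 and 0.057). PSMB2, also without an active site, was close to it at 103, 95.7 and 99.6 CPM in knockdown and 122, 157 and 153 CPM in control libraries, and did not pass (log2 fold change -0.53, edgeR adjusted p = 0.0614). Both genes were lower in each knockdown library than in any control library. None of the 3 catalytic subunits passed. PSMB6, which carries the caspase-like activity, had 101, 95.7 and 102 CPM in knockdown and 121, 187 and 166 CPM in control libraries (log2 fold change -0.66, SE 0.18, edgeR adjusted p = 0.0614). PSMB5, the chymotrypsin-like subunit and main target of proteasome inhibitor drugs, had 82.8, 92.6 and 93.5 CPM in knockdown and 104, 147 and 108 CPM in control libraries (log2 fold change -0.42, SE 0.17). PSMB7, the trypsin-like subunit, had 180.0, 173 and 171 CPM in knockdown and 153, 269 and 209.5 CPM in control libraries, where the groups overlapped (log2 fold change -0.27, SE 0.21). PSMB3 and PSMB4, again without active sites, had log2 fold changes of -0.61 and -0.30 that did not pass.

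Of the 6 ATPases of the base, which pull substrates into the core, PSMC3 fell, and PSMC6 had the log2 fold change closest to 0 of the 34 subunits. PSMC3 (chromosome 11, 47418769 to 47426473, minus strand) had 46.2, 44.4 and 49.4 CPM in knockdown and 73.1, 95.5 and 86.8 CPM in control libraries (log2 fold change -0.87, SE 0.15, edgeR adjusted p = 0.0167). PSMC6 had 58.0, 65.3 and 57.2 CPM in knockdown and 61.4, 52.2 and 67.9 CPM in control libraries (log2 fold change -0.01, SE 0.15). Knockdown values of PSMC3 lay well under every control value, whereas those of PSMC6 lay inside the control range. PSMC2, next in p after PSMC3, had 70.4, 67.0 and 68.4 CPM in knockdown and 84.0, 113 and 91.9 CPM in control libraries (log2 fold change -0.49, edgeR adjusted p = 0.0842). PSMC1, PSMC4 and PSMC5 had log2 fold changes of -0.51, -0.28 and -0.35 without passing, and of these only PSMC5 overlapped between the groups.

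The base and hinge subunits that are not ATPases were each lower in all 3 knockdown libraries. PSMD2 (chromosome 3, 184298709 to 184309054, plus strand), the scaffold that docks ubiquitin-like domains and the deubiquitinase USP14, had the smallest p of the 34 subunits. It had 225, 221 and 216 CPM in knockdown and 365, 424 and 366 CPM in control libraries (log2 fold change -0.80, SE 0.13, edgeR adjusted p = 0.0146). PSMD1, the other large scaffold, had 76.8, 78.5 and 76.5 CPM in knockdown and 112, 138 and 99.3 CPM in control libraries (log2 fold change -0.59, edgeR adjusted p = 0.0566). The ubiquitin receptor gene PSMD4 had a log2 fold change of -0.50 (edgeR adjusted p = 0.129).

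In the lid, 2 of 8 genes fell, and they encode partners. PSMD14 (chromosome 2, 161308038 to 161411717, plus strand) is the metalloprotease that cuts ubiquitin chains off the substrate, and PSMD7 (chromosome 16, 74296775 to 74306288, plus strand) is the inactive subunit it pairs with. PSMD14 had 42.2, 49.5 and 49.5 CPM in knockdown and 69.7, 74.4 and 76.8 CPM in control libraries (log2 fold change -0.65, SE 0.13, edgeR adjusted p = 0.0284). PSMD7 had 56.8, 58.3 and 57.1 CPM in knockdown and 82.4, 95.6 and 100.2 CPM in control libraries (log2 fold change -0.69, SE 0.13, edgeR adjusted p = 0.0231). For both genes the groups were far apart compared with either group's spread. The other 6 lid genes, PSMD3, PSMD6, PSMD8, PSMD11, PSMD12 and PSMD13, ranged from -0.51 to -0.23 on the log2 scale without passing. PSMD3, a large structural lid subunit, had 139, 132 and 133 CPM in knockdown and 126, 193 and 154 CPM in control libraries, with overlap.

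PSMD5, PSMD9 and PSMD10 carry the family name but encode chaperones that assemble the base and leave the finished particle. None passed, and their log2 fold changes of 0.06, -0.05 and -0.13 were 3 of the 4 closest to 0 among the 34. PSMD5 had 59.7, 64.4 and 64.9 CPM in knockdown and 64.6, 62.5 and 54.7 CPM in control libraries. PSMD10, known as gankyrin, had 27.1, 31.1 and 31.4 CPM in knockdown and 28.8, 39.2 and 30.0 CPM in control libraries. PSMD9 had 42.9, 41.1 and 40.2 CPM in knockdown and 38.8, 51.9 and 38.0 CPM in control libraries. In all 3 genes the groups overlapped.

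**Figure D2:**
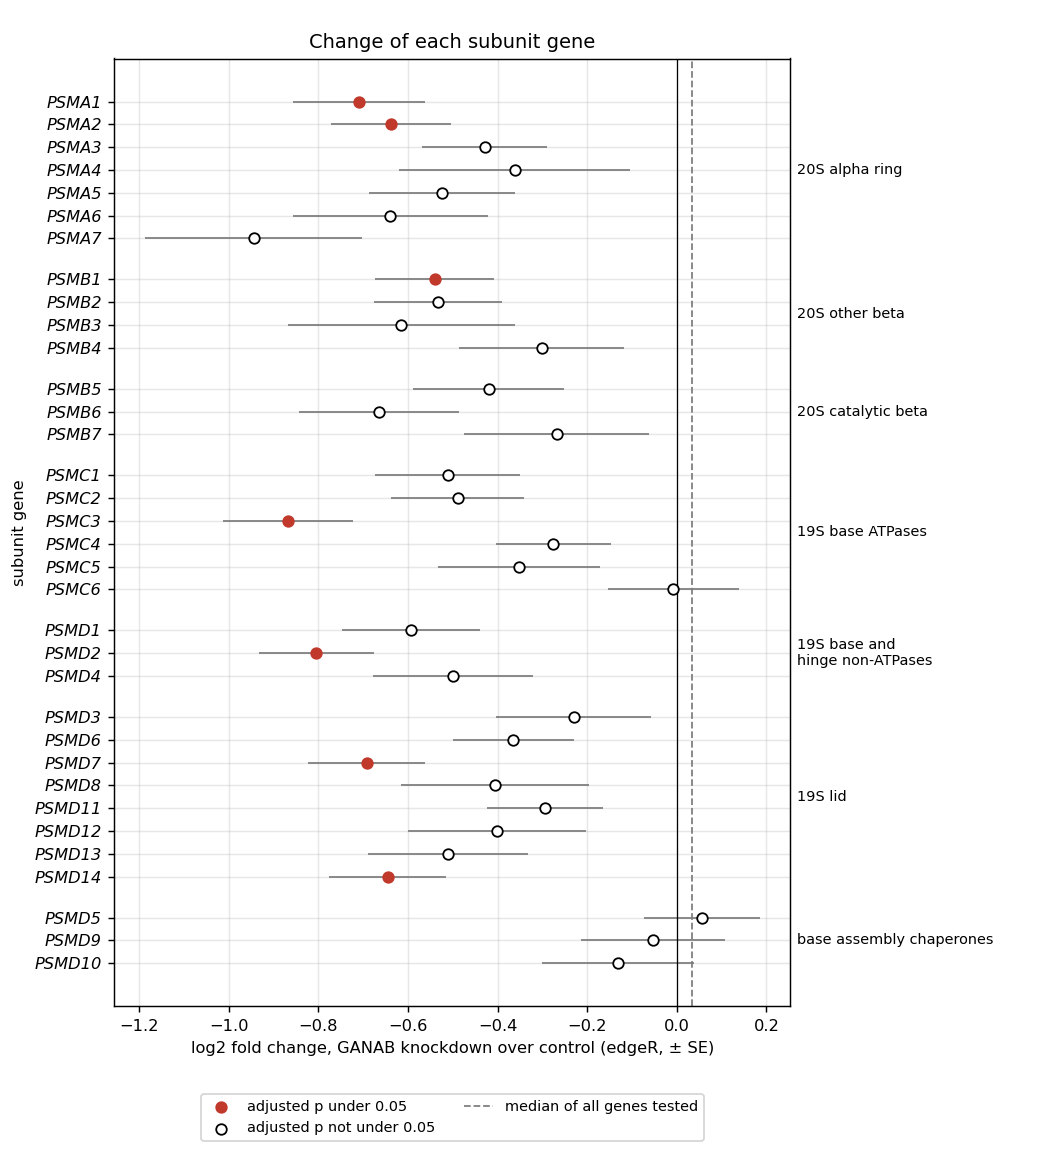
Log2 fold change of GANAB knockdown over control for each subunit gene (edgeR, bars ± SE), by role, with filled points for the 7 genes at an adjusted p under 0.05 and the dashed line at the median of all genes tested, 0.03. Nearly all points lie left of 0, the ATPase gene PSMC6 and the 3 chaperone genes lie near it, and PSMA7 has the most negative value and a wide bar.

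Of the 34 genes, 17 overlap another annotated gene, 14 of them one on the opposite strand, and the labels do not say whether counting used strand. These are overlaps of whole gene spans, and whether exons overlap was not tested. Among the 7 that fell, PSMB1, PSMC3 and PSMD2 overlap no other gene, while PSMA1 overlaps a gene of its own strand and PSMA2 (with MRPL32), PSMD7 and PSMD14 overlap genes of the opposite strand. Pseudogene copies took few reads: the 5 in the count table held at most 13.8% of the parent's counts in any library, for PSMC1P1 beside PSMC1. PSMA3-AS1, the antisense gene at PSMA3, reached 81.3% of the PSMA3 counts, so the level of PSMA3 is uncertain.

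On the TPM scale, which corrects for transcript length and so allows genes to be compared, the core subunits among the 34 genes averaged more than those of the cap. The 14 subunits of the 20S averaged 159, 166 and 161 TPM per gene in knockdown and 122, 298 and 220.0 TPM in control libraries, and the 17 of the 19S averaged 78.2, 81.8 and 80.0 TPM in knockdown and 62.6, 122 and 108 TPM in control libraries. The ratio of these means was 2.03, 2.03 and 2.01 in knockdown libraries and 1.95, 2.43 and 2.04 in control libraries, so for these genes the balance of core and cap did not separate the groups. The 19S subunits SEM1 and ADRM1 lie outside the symbol rule and were left out. SEM1 had 401, 398 and 393 TPM in knockdown and 229, 564 and 463 TPM in control libraries, above the 19S means, so the size of the ratio depends on the rule. Summed TPM of all 34 genes was 3663, 3843 and 3732 in knockdown and 2848, 6391 and 5021 in control libraries, with overlap. Protein-coding genes made up 54.6% of all TPM in control library 1 and 90.9% to 95.1% in the other 5 libraries. As a share of protein-coding TPM, the 34 genes made up 0.403%, 0.418% and 0.407% in knockdown and 0.521%, 0.672% and 0.533% in control libraries, without overlap.

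**Figure D3:**
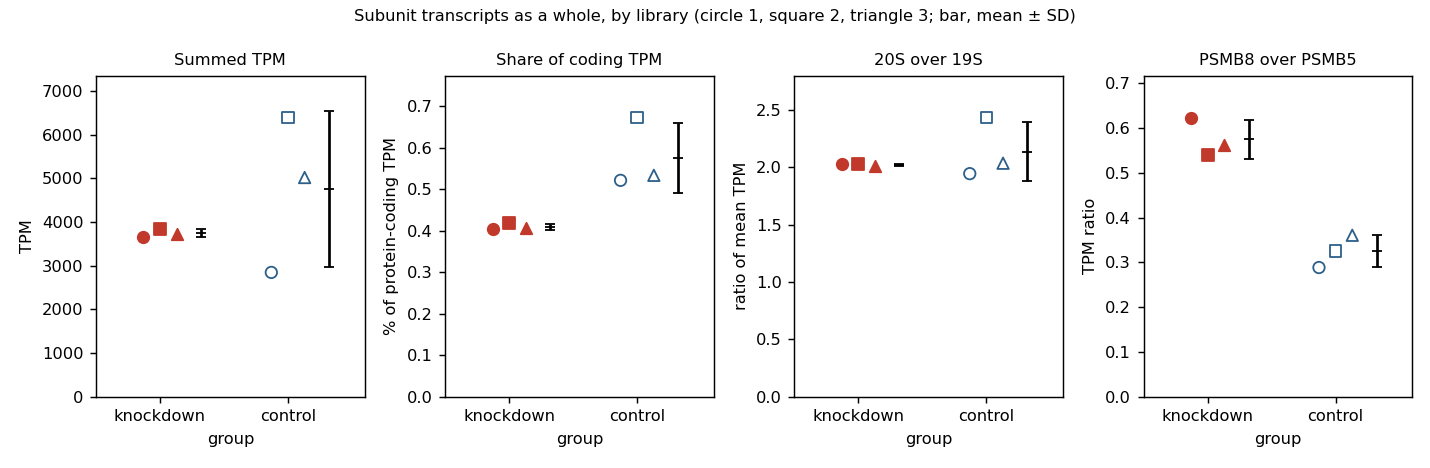
Per-library values for GANAB knockdown (filled) and control (open) of the summed subunit TPM, its percentage of protein-coding TPM, the ratio of mean TPM per subunit of 20S over 19S, and the TPM ratio of PSMB8 to PSMB5, with mean ± SD of 3 libraries. Groups overlap in summed TPM and in the ratio of 20S over 19S, and do not overlap in the share of protein-coding TPM or in PSMB8 over PSMB5.

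The make-up of the subunit RNA was read from each gene's share of the 34-gene TPM sum, a measure that does not depend on the scaling of a library. PSMA7 held 7.86%, 8.43% and 8.22% of the sum in knockdown libraries and 10.3%, 12.7% and 9.37% in control libraries, and was the largest contributor in every library. PSMC3 held 1.31%, 1.36% and 1.52% in knockdown and 1.89%, 1.57% and 2.34% in control libraries. These 2 of 34 were the subunits with a lower share in all knockdown libraries. Measured against the same sum, 3.72% of the 15583 genes that averaged 1 TPM or more were lower in all, so the count of 2 does not stand out. For 10 subunits the share was higher in all knockdown libraries, which held for 43.9% of all genes, so this count does not stand out. They included all 3 assembly chaperones, with PSMD5 at 0.795%, 0.830% and 0.764% in knockdown and 0.669%, 0.397% and 0.479% in control libraries. The alpha ring genes together, PSMA7 included, made up 23.3%, 24.4% and 23.9% in knockdown and 26.9%, 28.5% and 24.98% in control libraries. Of these genes, PSMA7 alone had a lower share in all knockdown libraries. PSMA5 had a higher share in all of them, and the shares of the other alpha genes overlapped. The mean TPM per gene of the alpha ring, divided by that of the beta rings, was 0.624, 0.677 and 0.654 in knockdown and 0.813, 0.776 and 0.687 in control libraries. This ratio also includes PSMA7, and the ring without PSMA7 was not tested.

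**Figure D4:**
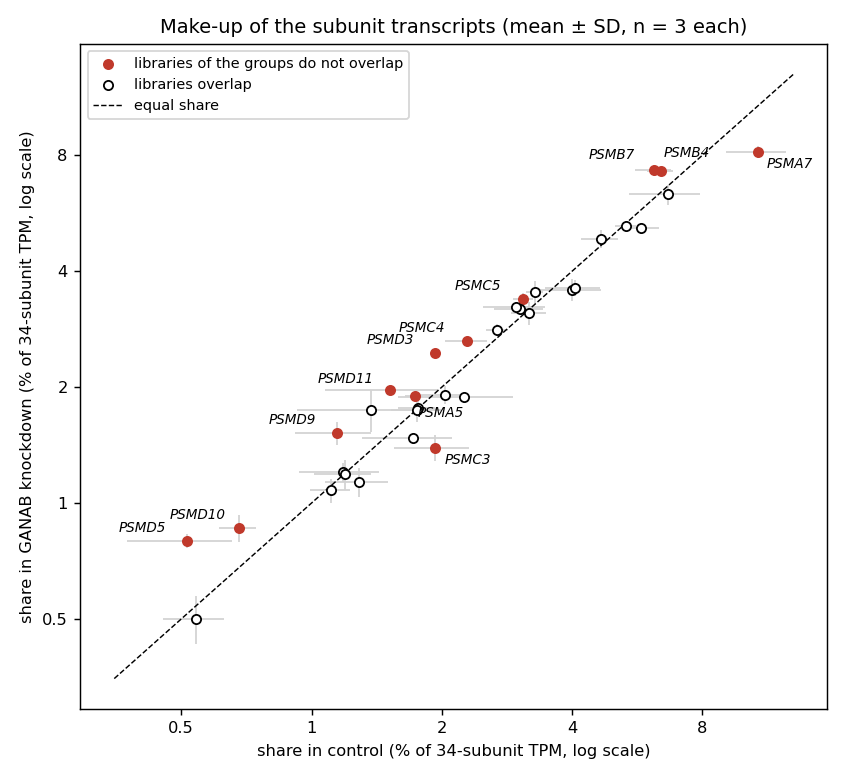
Share of each subunit gene in the 34-gene TPM sum, GANAB knockdown against control (both axes logarithmic, mean ± SD of 3 libraries each), with filled points where the libraries of the groups do not overlap. PSMA7 and PSMC3 lie below the line of equal share, and the chaperone genes PSMD5, PSMD9 and PSMD10 lie above it.

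The inducible subunits PSMB8, PSMB9 and PSMB10, which replace PSMB5, PSMB6 and PSMB7 in the immunoproteasome, had positive fold changes. These were 0.43, 0.14 and 0.19, on the log2 scale, and none passed (edgeR adjusted p = 0.198, 0.642 and 0.593). PSMB8 over PSMB5 was 0.623, 0.540 and 0.562 in TPM in knockdown and 0.289, 0.326 and 0.361 in control libraries. PSMB9 over PSMB6 was 0.282, 0.310 and 0.331 in knockdown and 0.233, 0.151 and 0.186 in control libraries, and PSMB10 over PSMB7 was 0.143, 0.144 and 0.173 in knockdown and 0.123, 0.0938 and 0.136 in control libraries. The groups did not overlap in any of the 3 ratios, which were not tested. Such ratios were often higher in all knockdown libraries: of the other genes that averaged 1 TPM or more, 35.4% were so over PSMB5, 50.4% over PSMB6 and 24.3% over PSMB7, so the 3 ratios do not stand out.

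Other genes of the pathway were taken from 6 lists. Of the 7 activator, inhibitor and further subunit genes tested, ADRM1, a ubiquitin receptor of the base, fell, with 90.4, 84.3 and 88.0 CPM in knockdown and 136, 192 and 160.1 CPM in control libraries (log2 fold change -0.89, edgeR adjusted p = 0.0195). PSME1 and PSME2, which form the activator cap of the immunoproteasome, had log2 fold changes of 0.28 and 0.23 without passing. Of 7 assembly genes of the core, POMP, which guides maturation of the beta rings, fell, with 35.2, 38.2 and 39.9 CPM in knockdown and 53.1, 78.6 and 66.3 CPM in control libraries (log2 fold change -0.80, edgeR adjusted p = 0.0323). Of 15 bound enzymes and shuttle factors, 2 fell in CPM, both deubiquitinases of the 19S particle. USP14 had a log2 fold change of -0.74 (edgeR adjusted p = 0.0248). UCHL5, which binds ADRM1, had one of -0.62, with a p close to the threshold (edgeR adjusted p = 0.0498). It had 17.4, 16.2 and 19.8 CPM in knockdown and 27.3, 26.4 and 28.3 CPM in control libraries. In TPM the UCHL5 groups overlapped, with means of 19.7 in knockdown and 20.2 in control libraries. Knockdown library 3, at 23.4 TPM, stood above control library 2, at 20.6 TPM, so the fall of UCHL5 was not seen on that scale. Over all genes tested, 3.72% fell, and with 1 or 2 genes called in each list little can be read from these counts. The median log2 fold changes of these 3 lists were -0.24, -0.31 and -0.43.

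None of 9 genes of the NFE2L1 pathway passed, and their median log2 fold change was 0.08. All knockdown values lay below all control values for 3 of the 9, as for 15.7% of all genes. These were NFE2L2, NGLY1 and MAFG, with log2 fold changes of -0.47, -0.64 and -0.52. They lay above for 1, SYVN1 (log2 fold change 0.37), against 21.9% of all genes. With 9 genes little can be read from these counts. DDI2 is also among the 15 bound enzymes and shuttles. NFE2L1 had 243, 233 and 229 CPM in knockdown and 225, 311 and 154 CPM in control libraries (log2 fold change 0.03, edgeR adjusted p = 0.952). NGLY1, the enzyme that removes N-glycans from NFE2L1, had 26.1, 25.5 and 24.2 CPM in knockdown and 35.1, 35.3 and 47.9 CPM in control libraries (log2 fold change -0.64, edgeR adjusted p = 0.0596). Among genes of ubiquitin supply, the ubiquitin gene UBB rose, with 1627, 1552 and 1608 CPM in knockdown and 1001, 826.5 and 811 CPM in control libraries (log2 fold change 0.86, edgeR adjusted p = 0.0161). The groups did not overlap. RPS27A, which encodes ubiquitin fused to a ribosomal protein, had a log2 fold change of -0.01.

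The promoters of the subunits were searched for motifs of factors known for proteasome genes. RefSeq (GRCh38.p14) gave a window of 250 bases before the first listed start site for 29 of the 34 genes, 6 of them among the 7 that fell. The core of the antioxidant response element, bound by NFE2L1 and NFE2L2 and searched as TGACNNNGC on both strands, was in 5 of 29 windows (17.2%) and in 3013 of 27305 promoter windows (11.03%). It was in PSMB3, PSMD3, PSMD5, PSMD9 and PSMD12, none of which fell, and in 0 of the 6 windows of genes that fell. Beside 11.03% of all windows, little can be read from 0 of 6. The windows of PSMA1, PSMA2, PSMD2 and PSMD14 also lay wholly in annotated exons. In PSMD7 the longest stretch outside exons was 12 bases. CCAAT was in 14 of 29 windows (48.3%, against 33.0% of all windows) and in 4 of the 6. GGGCGG, the GC box, was in 19 of 29 (65.5%, against 42.3%) and in all 6. CCGGAAG, an ETS site, was in 7 of 29 (24.1%, against 8.82%) and in 0 of the 6. The 27305 windows were not chosen by expression, whereas all 34 subunits passed the filter on low counts. A background matched for expression was not tested, and for these motifs too little can be read from 6 windows. Matches of different motifs overlapped 0 times among the 29 windows. A match is a description of the letters in these windows, and binding was not measured. The stretches outside annotated exons are shown for the 4 genes with a whole antioxidant response element core there, in capitals on either strand, and for PSMC3, which fell and has none:
PSMB3, chr17:38752491-38752735, plus strand: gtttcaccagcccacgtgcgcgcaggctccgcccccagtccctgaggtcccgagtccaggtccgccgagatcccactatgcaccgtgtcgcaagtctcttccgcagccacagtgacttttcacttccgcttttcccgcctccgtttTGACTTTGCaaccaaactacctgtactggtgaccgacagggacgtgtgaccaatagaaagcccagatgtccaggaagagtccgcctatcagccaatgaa
PSMD3, chr17:39980557-39980796, plus strand: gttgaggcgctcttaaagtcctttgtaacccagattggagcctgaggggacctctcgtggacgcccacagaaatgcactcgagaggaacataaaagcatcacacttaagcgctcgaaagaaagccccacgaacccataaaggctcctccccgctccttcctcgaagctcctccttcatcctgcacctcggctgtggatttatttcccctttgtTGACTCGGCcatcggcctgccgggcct
PSMD9, chr12:121888540-121888730, plus strand: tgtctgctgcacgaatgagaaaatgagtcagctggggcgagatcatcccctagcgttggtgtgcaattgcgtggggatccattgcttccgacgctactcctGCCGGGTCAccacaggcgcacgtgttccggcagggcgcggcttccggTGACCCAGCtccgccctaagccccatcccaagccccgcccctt
PSMD12, chr17:67366628-67366827, minus strand: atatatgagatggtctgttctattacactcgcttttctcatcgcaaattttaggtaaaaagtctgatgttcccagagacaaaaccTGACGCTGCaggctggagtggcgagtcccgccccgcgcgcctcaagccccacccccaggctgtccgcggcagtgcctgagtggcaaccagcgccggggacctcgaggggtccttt
PSMC3, chr11:47426474-47426689, minus strand: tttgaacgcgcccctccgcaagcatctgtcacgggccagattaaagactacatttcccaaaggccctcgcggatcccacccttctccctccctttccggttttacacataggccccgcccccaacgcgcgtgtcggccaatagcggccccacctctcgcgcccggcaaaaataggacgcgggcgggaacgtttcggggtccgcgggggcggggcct
The 5 genes with a core had log2 fold changes from -0.61 for PSMB3 to 0.06 for PSMD5, with PSMD12 at -0.40, PSMD3 at -0.23 and PSMD9, which has a match on each strand, at -0.05. None of them passed, and PSMC3 was at -0.87. Windows without a core were not only those of the 6 genes that fell: they included genes that did not pass, such as PSMC6 at -0.01.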

How the data were processed

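Bulk RNA-seq of 3 GANAB knockdown and 3 control libraries was analysed. Per the labels' protocols, TRIzol RNA (200 ng) went into the VAHTS Universal V6 kit. The submitters' processing notes name GRCh38 and the tools DESeq2, fastp and Salmon, without versions or roles; the transcript index and any removal of mouse reads were not stated there. The authors deposited estimated counts per gene as whole numbers without normalization. They also deposited TPM values per gene. Knockdown columns carry an abbreviation for knockout there and were matched by group and number. Counts were tested in edgeR 4.0.16 under R 4.3.3 by quasi-likelihood over all 6 libraries, with filterByExpr (2073 genes removed, 19430 tested), TMM, no covariate and Benjamini-Hochberg adjustment over all genes at 0.05, 2-sided. The fit was run on simulated counts, where most of the smaller changes were not called. TPM alternatives used limma 3.58.1 on log2(TPM + 1) or log2(TPM + 0.1). Genes were located with GENCODE release 29 (GRCh38). Replicate pairs differed by more than sampling noise (chi-square per degree of freedom 6.06 to 7.72 in knockdown and 129.8 to 513 in control pairs). Members and lists were chosen with earlier results of these data known. Named were GANAB, every subunit, at least the 2 of smallest p in each role group with their values per library, and members of 6 further lists that passed. NFE2L1, NFE2L2, NGLY1, MAFG, SYVN1, PSME1, PSME2, PSMB8, PSMB9, PSMB10 and RPS27A were added after their values were seen. Some genes of ubiquitin supply, and so the counts of that list, are not reported here.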

Additional observations from a re-analysis of the deposited data

How the results depend on the processing

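The count of subunits that fell, 7 in the main test, was within 1.5 times under DESeq2 size factors, upper-quartile scaling, no filter and the TPM scale rescaled to protein-coding genes, a setting chosen after seeing the data. It was 14 with the Wald test of DESeq2 1.42.0, 11 with limma-voom, 15 with limma-voom and quality weights, and 11 among genes with at least 5 CPM in 3 libraries. With each library left out in turn it was 0 to 17. It was 0 with each of the 3 TPM settings, where the median of all genes was 0.23, 0.28 and 0.09 and that of the subunits -0.24; the cause was not tested. No subunit rose under any of the 18 alternatives. Deviations of same-numbered libraries from their group means were hardly correlated (0.0022, 0.0171 and 0.0218). With 3 libraries per group and wide spread among controls, this cannot show whether the numbers pair libraries. With the replicate block 0 subunits fell, 17 at an unadjusted p under 0.05, against 1.1% of all genes called lower.

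Of the 34 log2 fold changes, 7 changed sign in some settings, none of them passing there. PSMC6 was 0.017 with upper-quartile scaling, 0.0050 with limma-voom, 0.0030 with the stricter filter, 0.14, 0.14 and 0.14 on the TPM scale, and between -0.0972 and 0.0317 with libraries left out in turn. PSMD10 was 0.0027 with quality weights, 0.0756, 0.0793 and 0.0756 in the 3 TPM settings and between -0.2478 and 0.0268 with libraries left out. PSMD9 was 0.0611 with quality weights, 0.15, 0.16 and 0.15 with TPM and between -0.1849 and 0.1101 with libraries left out. PSMD11 was 0.15, 0.16 and 0.15 and PSMD3 0.0774, 0.0792 and 0.0774 with TPM. With libraries left out, PSMA4 was between -0.5777 and 0.0171 (control library 2 out) and PSMD5 between -0.0626 (control library 3 out) and 0.0974.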
